A study of Mus musculus with 12 samples.

Results

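Hnrnpl and Hnrnpll are paralogous genes for RNA-binding proteins that regulate splicing. All splicing clusters that carried either gene name and had been tested for differential splicing were taken, together with every intron in them. This gave 4 clusters with 11 introns, of 7263 tested clusters with 20437 introns in all. Hnrnpl contributed 3 clusters with 8 introns and Hnrnpll 1 cluster with 3 introns, and no cluster of either gene was left untested. The genes were chosen by the differences in percent spliced in (PSI), a measure of intron usage, of their cassette exons in these same tables, so the values below describe the exons and are not independent evidence of a change.

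The cells were female mouse embryonic stem cells (mESCs) of a 129S x Cast background that carry a doxycycline-inducible Xist and have FKBP12(F36V) fused to the C terminus of METTL3, the catalytic subunit of the m6A writer. In the dTAG-13 group (6 samples) the cells received dTAG-13, a small molecule that directs the tagged protein to degradation, for 3 h before 30 min of 4-thiouridine (4sU) labelling of newly made RNA. The untreated group (6 samples) carried the same tag and was labelled in the same way without dTAG-13. The clones C3 and H5 gave 3 of the 6 samples each in both groups, so that 2 clones stand for the line, and cells without the tag were not part of the comparison. The cells grew on inactivated mouse fibroblasts as feeders. Of the 15 listed stem cell genes, 10 had a tested cluster, among them Nanog, Esrrb and Zfp42. Pou5f1, Sox2, Klf5, Lin28a and Utf1 had none. Of the 9 listed fibroblast genes 1 had a tested cluster, Fn1. The presence of a cluster is no level of expression, and its absence does not mean that a gene is silent.

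HNRNPL binds RNA rich in CA repeats and can promote or repress the inclusion of nearby exons. Its paralogue HNRNPLL is best known from lymphocytes, where it represses variable exons of the CD45 gene Ptprc. Genes for splicing regulators often contain a poison exon, a cassette exon that brings a premature stop codon and sends the transcript to nonsense-mediated decay, and human HNRNPL is known to act on such an exon of its own gene. A cassette exon is an exon that is either joined to both neighbours or skipped as a whole.

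Both genes held such an exon at the same place. The Hnrnpl exon is 70 nt long (mm10, chr7:28817335-28817404, plus strand) and the Hnrnpll exon is 83 nt long (mm10, chr17:80044940-80045022, minus strand). In each gene the exon lies between exon 6 and exon 7 of a protein-coding transcript, and in each gene these neighbours are 73 nt and 72 nt long. In the GENCODE vM21 annotation the Hnrnpl exon belongs to 1 nonsense-mediated decay transcript and 1 retained intron transcript, and the Hnrnpll exon to 1 nonsense-mediated decay transcript. Neither exon belongs to a protein-coding transcript there. Neither length is a multiple of 3, whereas 44.0% of the 2411 cassette exons in the tables are.

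The reading frame left by exon 6 runs into a TGA stop codon inside each cassette exon. The stop occupies bases 57 to 59 of the Hnrnpl exon and bases 45 to 47 of the Hnrnpll exon, counted from the 5′ end of the exon. When exon 6 is joined directly to exon 7, no stop codon arises in that frame within exon 7 of either gene. The start of each exon up to the stop is shown because it carries the termination signal, with the stop codon in capitals (reference GRCm38, Hnrnpl chr7:28817335-28817393 on the plus strand and Hnrnpll chr17:80044976-80045022 on the minus strand).
Hnrnpl: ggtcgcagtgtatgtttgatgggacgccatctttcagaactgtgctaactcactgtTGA
Hnrnpll: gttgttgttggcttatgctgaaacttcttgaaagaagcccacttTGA

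Use of both exons was higher in dTAG-13-treated cells. The measure is the fitted PSI of an intron, which is the fraction of the split reads of its cluster that support this intron, with both clones and all replicates of a condition combined into 1 value by the authors. No value per sample is in these tables, so no spread between replicates can be given, and the differences below carry no error and no test.

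In Hnrnpl, the intron that enters the cassette exon (1982 nt) had a PSI of 0.225 in dTAG-13-treated cells and 0.111 in untreated cells. The intron that leaves the exon (1056 nt) had a PSI of 0.291 in dTAG-13-treated cells and 0.164 in untreated cells. The intron that skips the exon (3108 nt) had a PSI of 0.484 in dTAG-13-treated cells and 0.725 in untreated cells, a difference of -0.24. Skipping had the highest PSI of the 3 introns in both conditions.

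In Hnrnpll, the intron that enters the exon (3585 nt) had a PSI of 0.197 in dTAG-13-treated cells and 0.0914 in untreated cells. The intron that leaves the exon (374 nt) had a PSI of 0.264 in dTAG-13-treated cells and 0.112 in untreated cells. The skipping intron (4042 nt) had a PSI of 0.539 in dTAG-13-treated cells and 0.796 in untreated cells, a difference of -0.26. In both genes the 2 exon junctions had the higher PSI, and the skipping junction the lower PSI, in treated cells.

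**Figure D1:**
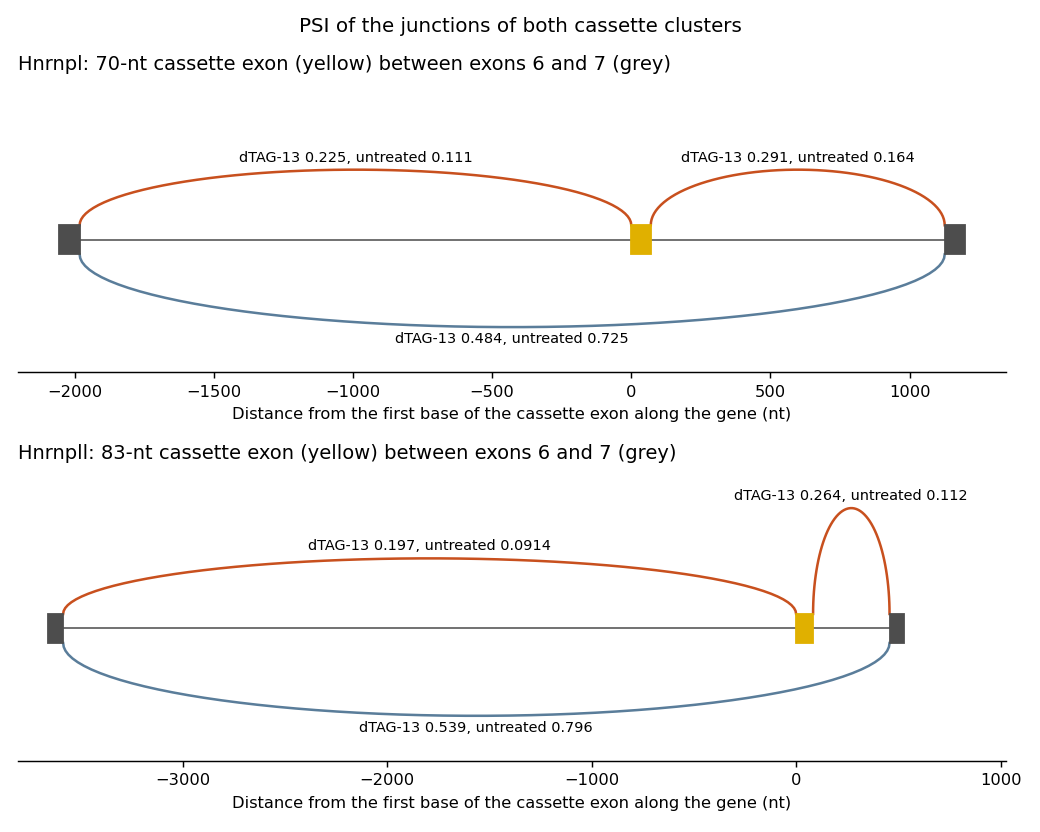
The cassette exon (yellow) and its neighbouring exons (grey) of each gene are drawn to scale along the gene, with the distance from the first base of the cassette exon in nt on the x-axis. Arcs above are the junctions into and out of the exon, the arc below is the skipping junction, and each carries the fitted PSI in dTAG-13-treated and untreated cells: skipping was at 0.484 against 0.725 in Hnrnpl and at 0.539 against 0.796 in Hnrnpll.

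Inclusion of an exon was computed as the mean PSI of its 2 junctions divided by the sum of that mean and the skipping PSI. Inclusion of the Hnrnpl exon was 34.8% in dTAG-13-treated cells and 15.9% in untreated cells, 2.19-fold higher, or 2.82-fold higher as odds. Inclusion of the Hnrnpll exon was 29.9% in dTAG-13-treated cells and 11.3% in untreated cells, 2.64-fold higher, or 3.34-fold higher as odds. On the fraction scale the gains were 0.189 for Hnrnpl and 0.186 for Hnrnpll, a difference of 0.0027 that depended on the measure. Hnrnpl minus Hnrnpll was 0.0198 from the entering junction alone, -0.0131 from the leaving junction alone and -0.0156 from 1 minus the skipping PSI. By the averaged measure the Hnrnpl exon was included more by 0.0486 in treated and by 0.0459 in untreated cells. Without replicate values it cannot be said whether the genes differ in level or in gain.

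The junction leaving the exon had the higher PSI in both genes and both conditions. In Hnrnpl its PSI was 1.30 times that of the junction entering the exon in dTAG-13-treated cells and 1.48 times in untreated cells. In Hnrnpll this ratio was 1.34 in dTAG-13-treated cells and 1.23 in untreated cells. The gain computed from either junction alone had the same sign in both genes, which follows from both junctions being higher and skipping lower.

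The other introns of Hnrnpl differed far less. One cluster joins 5′ splice sites at 3 positions in the 5′ part of the gene to the exon that starts at 28813279 on chromosome 7. Neighbouring positions lie 2309 nt and 998 nt apart. Whether they belong to 1 exon or to separate first exons was not tested. The site farthest upstream (last exon base 28808859) had a PSI of 0.269 in dTAG-13-treated cells and 0.237 in untreated cells. The middle site (28811168) had a PSI of 0.629 in dTAG-13-treated cells and 0.618 in untreated cells, and the nearest site (28812166) had 0.102 in dTAG-13-treated cells and 0.145 in untreated cells. Only the nearest site had the lower PSI in treated cells, and its junction is in no vM21 transcript.

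A further cluster in the 3′ part of Hnrnpl uses an annotated 5′ splice site (last exon base 28820274) and another 32 nt downstream, whose junction is in no vM21 transcript. The annotated junction had a PSI of 0.986 in dTAG-13-treated cells and 0.990 in untreated cells, and the other had 0.0138 in dTAG-13-treated cells and 0.0103 in untreated cells. This cluster was nearly the same in both conditions. The largest absolute difference in PSI within a cluster was 0.0432 for the 5′ cluster and 0.0035 for the 3′ cluster of Hnrnpl.

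**Figure D2:**
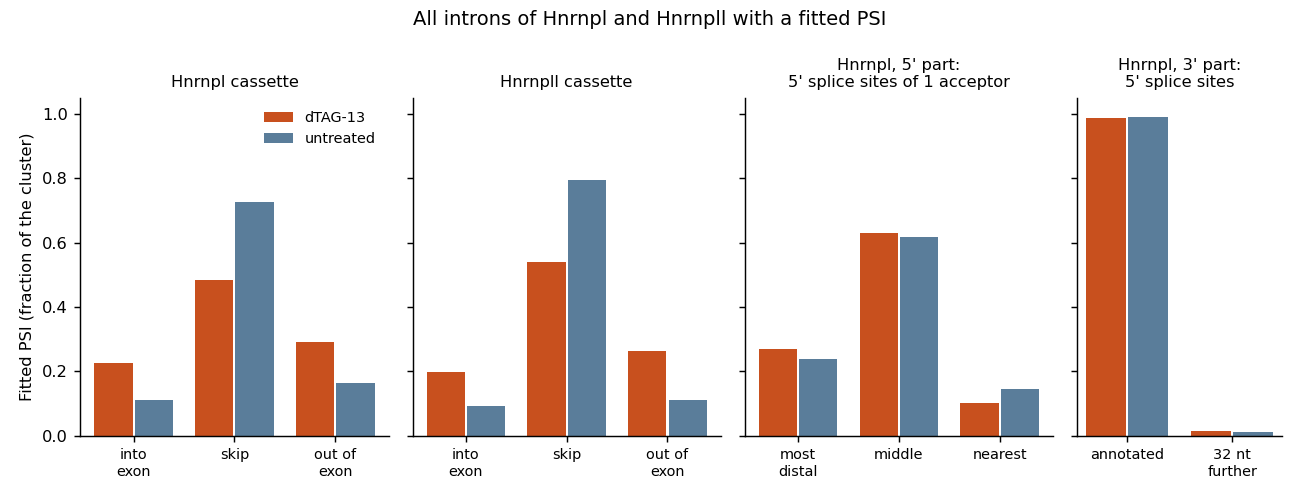
Bars give the fitted PSI (y-axis, fraction of the cluster, 1 value per condition and so without error bars) of all 11 introns, with dTAG-13-treated cells in orange and untreated cells in blue. The introns of the cassette clusters stand apart between conditions (skipping 0.484 against 0.725 in Hnrnpl), whereas those of the other Hnrnpl clusters are close (0.986 against 0.990 at the annotated site of the 3′ cluster).

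A largest absolute PSI difference of at least 0.1 was reached by 2 of the 4 clusters of Hnrnpl and Hnrnpll, against 336 of all 7263 tested clusters (4.63%). The 2 are the cassette clusters that the genes were chosen for, so nothing follows from this share. By this measure the Hnrnpll cassette cluster was number 48 and the Hnrnpl cassette cluster number 52 of the 7263. The 5′ cluster of Hnrnpl exceeded 75.6% of all clusters and the 3′ cluster exceeded 10.1%.

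The tables held 2411 clusters made of exactly the 3 introns of a cassette exon. Inclusion was higher by at least 0.1 after dTAG-13 in 41 of them (1.70%) and lower by at least 0.1 in 45 (1.87%), with a median change of -0.0029 and a 5th to 95th percentile range of -0.0672 to 0.0616. Hnrnpl was number 6 and Hnrnpll number 7 by gain. By change in log odds they were number 20 and number 12, and by gain among 5005 sets of 3 such introns in clusters of any size number 32 and number 34. The exons just above them were those of Dnm2, which encodes a dynamin GTPase of membrane fission (0.572 in dTAG-13-treated cells and 0.328 in untreated cells), and Atg7, which encodes an enzyme of autophagy (0.605 in dTAG-13-treated cells and 0.413 in untreated cells). Just below was a 61-nt exon of Btbd7 at 0.280 in dTAG-13-treated cells and 0.0977 in untreated cells.

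Both exons started from low inclusion, which is usual for exons of their annotation class. The median untreated inclusion was 0.853 over all 2411 cassette exons. It was 0.147 over the 172 in annotated transcripts but in no protein-coding one, and 0.122 over the 109 of these in a nonsense-mediated decay transcript. In dTAG-13-treated cells 24.3% of the cassette exons had lower inclusion than that of Hnrnpl and 22.4% lower than that of Hnrnpll, and in untreated cells these shares were 15.7% for Hnrnpl and 12.3% for Hnrnpll. Among the 169 exons with an untreated inclusion of 0.1 to 0.2, Hnrnpl and Hnrnpll had the highest gains, followed by a 24-nt exon of Gon4l (0.314 in dTAG-13-treated cells and 0.151 in untreated cells). The range was set around both genes, which were chosen for their gain, so nothing follows from their place in it. The exon of Btbd7, at 0.0977 in untreated cells and with a gain of 0.183, falls just outside. In this range inclusion was higher by at least 0.1 in 3 exons (1.78%), against 1.70% over all cassette exons. Besides Hnrnpl and Hnrnpll, the only one was that of Gon4l. The share of 1.78% thus rests on the choice of the genes, and nothing follows from its nearness to 1.70%. Inclusion was lower by as much in 0, but an exon that starts at 0.1 to 0.2 has little room for such a loss.

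**Figure D3:**
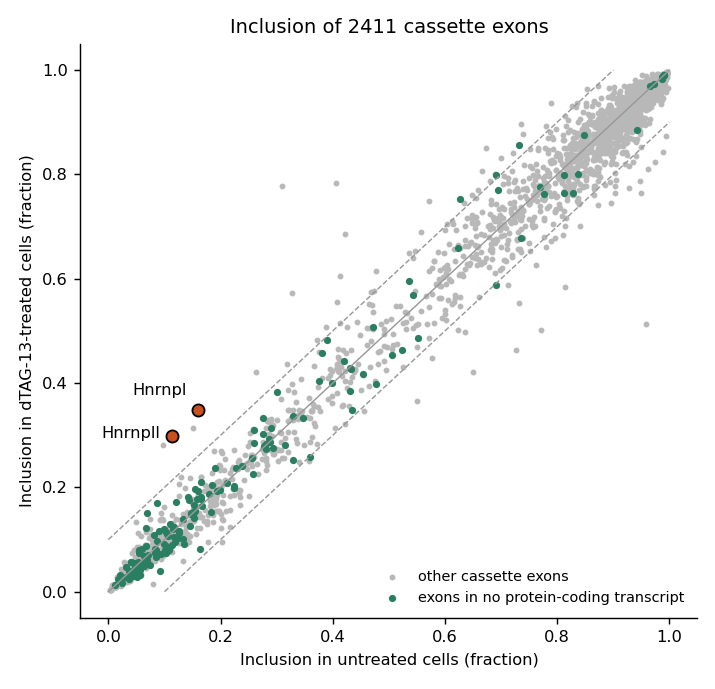
Each point is 1 of 2411 cassette exons, with inclusion in untreated cells on the x-axis and in dTAG-13-treated cells on the y-axis (both fractions, 1 value per condition). Green points are exons annotated in no protein-coding transcript, and dashed lines mark a difference of 0.1 either way. Hnrnpl (0.348 against 0.159) and Hnrnpll (0.299 against 0.113) lie next to each other above the upper line.

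Likeness of pattern was measured as the distance between exons in the log odds of inclusion in both conditions, over 2 points per exon. The exons of other genes nearest to that of Hnrnpl were those of Gon4l (distance 0.17), Mgrn1 (0.42) and Cemip2 (0.46), and the exon of Hnrnpll itself lay at 0.45. Nearest to the exon of Hnrnpll were those of Btbd7 (0.19), Gon4l (0.33) and Usp31 (0.44), with that of Hnrnpl next. Hnrnpll was thus number 3 from Hnrnpl, and Hnrnpl number 4 from Hnrnpll, among all 2411 exons. The exons of the other genes named here were 24 nt (Gon4l), 45 nt (Mgrn1), 61 nt (Btbd7), 82 nt (Cemip2) and 129 nt (Usp31) long.

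The splice sites of the exons were then compared with all splice sites in the tables, each scored by how well its bases match the average site. The 3′ splice sites into the cassette exons scored low in both genes, above only 2.30% of 13536 sites for Hnrnpl (1.19 bits) and 4.62% for Hnrnpll (2.68 bits). The 3′ splice sites of the downstream exons, which compete for the same upstream exon, scored above 74.7% of sites in Hnrnpl and 71.6% in Hnrnpll. The 5′ splice sites of the cassette exons differed between the genes, with that of Hnrnpl above 68.1% of 13986 sites and that of Hnrnpll above 14.6%.

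The low 3′ splice sites were also alike in sequence. Over the last 20 intron bases and the first 3 exon bases, 18 of 23 bases were shared between the genes. Of the 2409 other cassette exons, 0 shared as many with Hnrnpl and 0 with Hnrnpll, and the median exon shared 8 with Hnrnpl. The sites are shown with the shared bases in capitals (GRCm38, Hnrnpl chr7:28817315-28817337 on the plus strand and Hnrnpll chr17:80045020-80045042 on the minus strand).
Hnrnpl: TGTaAAACCaTGTgATgCAGGgT
Hnrnpll: TGTgAAACCgTGTaATaCAGGtT

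Both sites were poor in C and T, which usually form a run before an exon. Only 8 of the last 20 intron bases were C or T in each gene, where the median 3′ splice site of the tables had 13, and 1.30% of sites had 8 or fewer. The shared stretch was short. In steps of 20 bases, 16 of the last 20 intron bases were identical, against 7 of the 20 bases before them and 6 of the first 20 exon bases. The best local alignment of both exons with 200 nt of intron on each side covered 34 columns with 27 identical bases and 1 gap, and ended 1 base into the exon. This comparison was made after the sequences had been seen.

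The remaining sequence of the cassette exons was less alike. Aligned end to end, the cassette exons were 51.6% identical, where the median of 619 other cassette exons of 60 to 95 nt was 48.8% to Hnrnpl and 48.5% to Hnrnpll. The exons before them (exon 6) were 70.7% identical between the genes and the exons after them (exon 7) 52.9%. The 5′ splice sites out of the cassette exons are given with the first intron bases in capitals, since they share only 3 of the first 6 intron bases (GRCm38, Hnrnpl chr7:28817402-28817410 on the plus strand and Hnrnpll chr17:80044934-80044942 on the minus strand).
Hnrnpl: atgGTaaga
Hnrnpll: cagGTactg

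**Figure D4:**
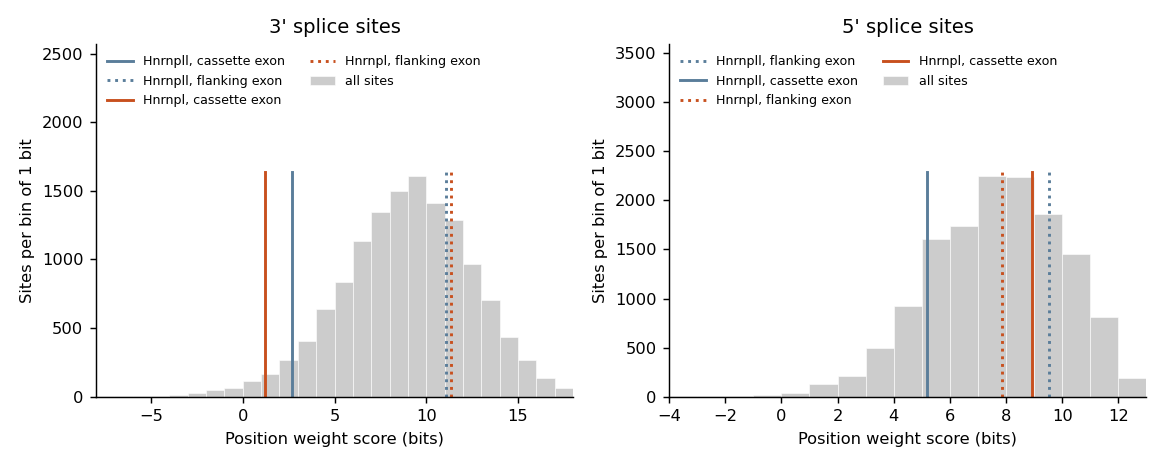
Grey bars count all 3′ splice sites (left) and 5′ splice sites (right) of the tables per bin of 1 bit of match to the average site (x-axis). Solid lines mark the cassette exons and dotted lines their flanking exons, with Hnrnpl in orange and Hnrnpll in blue: the 3′ splice sites of both cassette exons, at 1.19 and 2.68 bits, lie in the low tail.

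Sequence motifs next to the exons were counted on the gene strand, which is that of the RNA: ACACAC for the CA repeats that HNRNPL binds, and GGACT and GAACT, 2 words of the wider m6A consensus DRACH. None of these 3 words occurred in the 200 nt of intron upstream or downstream of either exon. Among all cassette exons with introns that long, ACACAC was found in 5.60% of upstream and 5.67% of downstream windows, GGACT in 13.5% and 14.6%, and GAACT in 18.9% and 20.1%. Inside the exons, GAACT occurred once, from base 37 of the Hnrnpl exon, and 8.53% of 621 cassette exons of 60 to 95 nt hold it. A match, or its absence, says nothing about binding or methylation there.

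Other DRACH words, in which D is A, G or T, R is A or G, and H is A, C or T, did occur beside both exons. The 200 nt upstream of the exon held 9 in Hnrnpl and 3 in Hnrnpll, where the median of 2196 cassette exons was 3 and 97.8% held at least 1. As many as 9 were found upstream of 1.46% of them. The 200 nt downstream held 5 in Hnrnpl and 2 in Hnrnpll, where the median of 2188 was 3. The exons held 2 in Hnrnpl (GAACT and TAACT) and 1 in Hnrnpll (AAACT), against a median of 2. The 3′ splice sites printed above contain AAACC in both genes. DRACH words were counted after the sequences had been seen.

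Farther into the introns, both upstream introns held CA runs. ACACAC occurred 1 time on the gene strand and 1 time on the other strand in Hnrnpl, and 3 times and 0 times in Hnrnpll. Whether other introns of this length hold such runs as often was not tested. The longest run of alternating C and A was 7 bases in Hnrnpl, 894 nt before the exon, and 8 bases in Hnrnpll, 1708 nt before the exon. The run nearest to an exon was 6 bases, 189 nt before that of Hnrnpl, and reads CACACA, so that it lies within 200 nt but is no match to ACACAC. The longest runs are shown with 10 bases on either side and the run in capitals (GRCm38, Hnrnpl chr7:28816424-28816450 on the plus strand and Hnrnpll chr17:80046721-80046748 on the minus strand).
Hnrnpl: ttgcgcaccaACACACAgggcacaaaa
Hnrnpll: ggggagtgggACACACACtttaggacag

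GGACT occurred 2 times in the upstream intron of Hnrnpl and 5 times in that of Hnrnpll. On the other strand of these introns it occurred 2 and 3 times. The nearest on the gene strand started 1378 nt before the exon in Hnrnpl and 887 nt before it in Hnrnpll. GAACT occurred 0 times in the upstream intron of Hnrnpl and 3 times in that of Hnrnpll, and 2 and 4 times on the other strand. These counts are given without those of other introns. The downstream introns held no ACACAC and no GGACT in either gene, and GAACT once, from base 368 of the Hnrnpl intron.

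Of the related polypyrimidine tract binding proteins, which are splicing repressors with the same kind of RNA-binding domains, 0 of 7 clusters reached a PSI difference of 0.1, which with 4.63% of all tested clusters doing so is no result about the family. Ptbp1 had 4 clusters and Ptbp2 had 1, and their largest differences were 0.02 (0.370 in dTAG-13-treated cells and 0.350 in untreated cells) and -0.03 (0.502 in dTAG-13-treated cells and 0.531 in untreated cells). Ptbp3 had 2 clusters, and the junction that skips a 34-nt coding exon had a PSI of 0.758 in dTAG-13-treated cells and 0.832 in untreated cells. Inclusion of that exon was 0.137 in dTAG-13-treated cells and 0.0919 in untreated cells, a gain of 0.0456, against 0.189 for Hnrnpl and 0.186 for Hnrnpll.

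Of 23 other hnRNP genes, 21 had a tested cluster, and 4 of their 61 clusters (6.56%) reached a difference of 0.1, in 3 genes, against 4.63% of all tested clusters. The median of the largest difference was 0.0142 over these clusters and 0.0214 over all tested clusters. Hnrnph2 had a junction at 0.367 in dTAG-13-treated cells and 0.158 in untreated cells. Hnrnpk, a binder of C-rich RNA, had one at 0.465 in dTAG-13-treated cells and 0.288 in untreated cells and, in another cluster, one at 0.360 in dTAG-13-treated cells and 0.517 in untreated cells. Hnrnpf, a binder of G-rich RNA, had one at 0.256 in dTAG-13-treated cells and 0.401 in untreated cells. All 4 of these junctions occur in protein-coding transcripts. The first Hnrnpk junction also occurs in 2 nonsense-mediated decay and 2 retained intron transcripts, and the second in 1 retained intron transcript. Among the 20 cassette exons of these genes, inclusion was higher by at least 0.1 in 0 and lower by at least 0.1 in 2, where the shares over all cassette exons were 1.70% and 1.87%. The 2 were a 45-nt exon of Hnrnph2 (0.463 in dTAG-13-treated cells and 0.727 in untreated cells) and a 44-nt exon of Hnrnpk (0.787 in dTAG-13-treated cells and 0.947 in untreated cells). The highest gain among them was 0.0819, in a 105-nt exon of Hnrnpdl that, like those of Hnrnpl and Hnrnpll, is in no protein-coding transcript of vM21 (0.383 in dTAG-13-treated cells and 0.301 in untreated cells). These 3 exons were named after their values were seen.

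**Figure D5:**
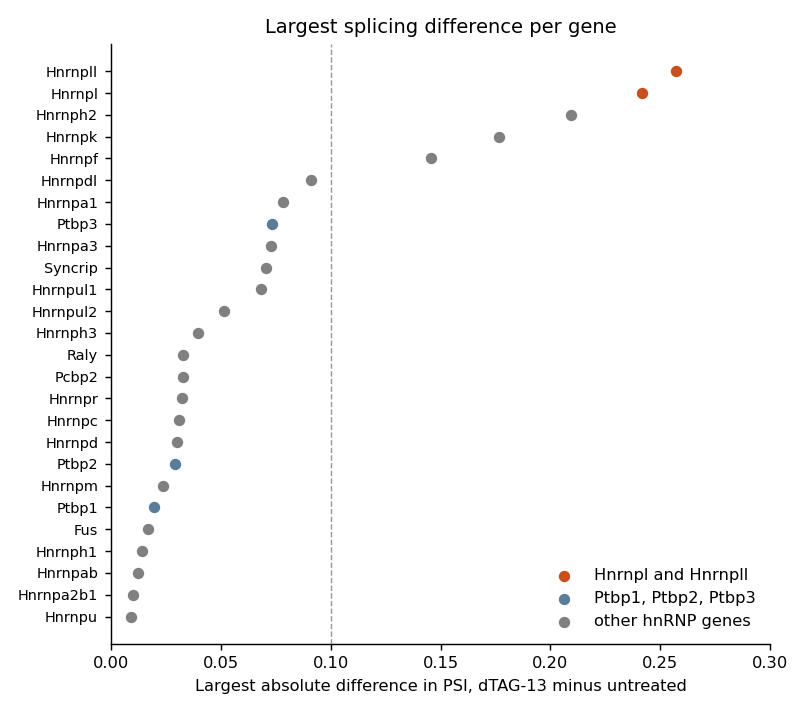
Points give, for each hnRNP or Ptbp gene with a tested cluster (y-axis), the largest absolute PSI difference between dTAG-13-treated and untreated cells in any of its clusters (x-axis). The dashed line is at 0.1. Hnrnpll (0.257) and Hnrnpl (0.242), which were chosen for this difference, are at the top, followed by Hnrnph2 (0.209).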

How the data were processed

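The authors mapped 4sU-seq reads of the 12 samples to mm10 with STAR 2.5.2b, kept uniquely mapped split reads and fitted intron usage with LeafCutter, both clones of a condition together. What the authors deposited, and what was used, is 1 PSI per intron and condition, a fraction fitted by LeafCutter, with the status and gene names of each cluster. The tables also hold the authors' own comparison (effect sizes, differences, likelihood ratios and p-values), which was not used. Read numbers are not in these tables, so the depth behind a PSI is unknown, and no interval or test was computed.

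Differences are the PSI in dTAG-13-treated minus that in untreated cells. A cassette cluster has exactly 3 introns, of which 2 lie inside the third with its outer ends, and 0.1 was used as a call. The code of the cassette search was checked on simulated clusters without noise, built with the same inclusion formula. This does not test the search on real fitted PSI. Coordinates are 1-based on mm10. Reference sequence is GRCm38.p6, read with pysam 0.24.0, and not that of the 129S x Cast cells, and annotation is GENCODE vM21. Splice sites (3 exon and 6 intron bases at the 5′ end, 20 intron and 3 exon bases at the 3′ end) were scored by a position weight matrix built from all sites of the tables. Exons were aligned with Biopython 1.88.

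The genes, lists and measures were chosen with earlier results of these data known. Named genes are Hnrnpl and Hnrnpll, the Ptbp genes with their largest cluster, up to 4 hnRNP genes past 0.1, and the 3 exons most alike to each member. Genes named beside ranks, inclusion ranges and annotation classes were chosen after their values were seen.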

Additional observations from a re-analysis of the deposited data

How the results depend on the processing

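The gain in inclusion had the same sign under each alternative. This could not be otherwise, because each alternative reuses PSI values of which both exon junctions were higher and skipping lower in treated cells. From the upstream junction alone the gain was 0.185 for Hnrnpl and 0.165 for Hnrnpll. From the downstream junction alone it was 0.192 and 0.205, and as 1 minus the skipping PSI 0.242 and 0.257. With 0.05 as the call, 1438 clusters (19.8%) passed, and with 0.2, 83 (1.14%) passed, in both cases with 2 of the 4 clusters of Hnrnpl and Hnrnpll. By change in log odds, Hnrnpl was number 20 and Hnrnpll number 12. Among 5005 sets of 3 such introns in clusters of any size they were number 32 and number 34. Among exons with an untreated inclusion of 0.1 to 0.9 they were number 6 and number 7. All exons ranked above them lie in this range too, so these ranks could not change. Among the 172 exons annotated in no protein-coding transcript, an alternative chosen after seeing the data, they were number 1 and number 2. With windows of 100 nt, none of the 3 motifs was found beside either exon, as with 200 nt. Counting any DRACH word in place of GGACT and GAACT, also chosen after seeing the data, gave 9 upstream and 5 downstream in Hnrnpl and 3 upstream and 2 downstream in Hnrnpll, against 0 in each. No paired analysis was possible because the tables hold 1 pooled PSI per condition, which also means that no replicate or clone could be left out, and that differences between clones remain unknown.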

Other observations

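Cassette exons that, like those of Hnrnpl and Hnrnpll, belong to annotated transcripts but to no protein-coding one numbered 172 of the 2411, and 109 of them were in a nonsense-mediated decay transcript. Their median change in inclusion was 7.0e-07, against -0.0036 for the 1902 exons of protein-coding transcripts. Inclusion was higher by at least 0.1 after dTAG-13 in 5 of the 172 (2.91%) and lower in 2 (1.16%). Without Hnrnpl and Hnrnpll, which were chosen for this gain, it was higher in 3 of 170 (1.76%), close to the 1.70% over all cassette exons. Besides Hnrnpl and Hnrnpll, the 5 were a 62-nt decay exon of Nfat5, a transcription factor of the response to osmotic stress, at 0.753 in dTAG-13-treated cells and 0.626 in untreated cells, and exons of the non-coding RNA Firre (0.799 in dTAG-13-treated cells and 0.691 in untreated cells) and of 4930519F16Rik (0.857 in dTAG-13-treated cells and 0.732 in untreated cells). The 2 with lower inclusion were a decay exon of the Polycomb-associated gene Asxl2 (0.258 in dTAG-13-treated cells and 0.359 in untreated cells) and an exon of Platr21 (0.587 in dTAG-13-treated cells and 0.691 in untreated cells). The exons of Nfat5, Firre and 4930519F16Rik were already included in most transcripts of untreated cells, unlike those of Hnrnpl and Hnrnpll.

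The junction from the 5′ splice site of Hnrnpl at 28812166, which is in no vM21 transcript, had a PSI of 0.102 in dTAG-13-treated cells and 0.145 in untreated cells. That splice site scored above 89.9% of all 5′ splice sites of the tables. The annotated sites at 28811168 and 28808859, which join the same downstream exon, scored above 36.6% and 31.9%. The order of the scores was thus not that of the PSI values, which were highest at 28811168 in both conditions. Whether these sites lie in the same transcripts was not tested, so nothing follows from this order.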
